A study of Rattus norvegicus with 12 samples.

Results

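Signalling from the prolactin receptor to Stat5 was followed in rat mammary gland through 9 genes chosen for their place in the pathway and found by their symbol in the platform's annotation. They were Prlr, Jak2, Stat5a, Stat5b, Elf5, Cish, Socs1, Socs2 and Socs3. All 9 were on the array, with 13 of its 31099 probe sets, and they stand among 14217 genes measured. The study asked how soy protein isolate, which carries plant estrogens called isoflavones, and estradiol (E2), the main ovarian estrogen, act on mammary gene expression alone and together. The tissue was the abdominal pair of mammary glands from female rats of the Sprague-Dawley stock, and pooled RNA went onto Affymetrix rat arrays. There were 3 arrays in each of 4 groups, namely casein plus E2, casein, soy plus E2 and soy.

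In the casein plus E2 group rats ate casein and received E2 from a mini-osmotic pump, and the casein group ate casein and received vehicle. The soy plus E2 group ate soy protein isolate with the same E2 treatment, and the soy group ate soy protein isolate with vehicle. What all groups shared was ovariectomy, done on postnatal day 50, so that no group had ovarian hormones of its own afterwards. Diets ran from day 30 to day 64, and E2 or vehicle was given for 14 days. The sources used here give neither the E2 dose nor the number of animals in a pool. The labels do not state that a group's pools came from separate animals, so each p-value reflects only the spread between these pools, which may be technical.

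Values are log2 values centred on each probe set's median over the 12 arrays, so 0 marks that median and no value is an expression level. Precision is limited by how few arrays there are. In the casein plus E2 group, pools 2 and 3 gave almost identical arrays, with 0 of 31099 probe sets more than 1 log2 unit apart and an SD of their difference of 0.163, against 0.301 or more for every other pair of arrays. They were counted as 1 sample, which leaves 11 samples. Fits with 12 separate arrays treat these 2 arrays as independent, which can make p-values too small. Casein pool 3 carried liver transcripts, with a mean over 11 liver markers of 5.66, against -0.36 to 0.25 on the other arrays. Skeletal muscle markers were high in casein pool 2 (3.85), soy pool 2 (4.08) and, less so, casein pool 1 (1.80), against -1.14 to 0.67 on the other arrays. Bacterial spike-in transcripts were above 0 on the 3 casein arrays, on pool 1 of casein plus E2, on pool 2 of soy plus E2 and on soy pool 1. A label names liver for samples whose source is labelled as mammary gland. Centred values cannot show whether mammary markers are present at all, so the tissue could not be checked by level.

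Prolactin binds a cytokine receptor, the product of Prlr, that has no kinase activity of its own. The receptor carries the kinase Jak2, which phosphorylates Stat5a and Stat5b, and these enter the nucleus as dimers and bind DNA at palindromic sites near genes for milk proteins and for inhibitors of the same pathway. In mouse mammary gland Stat5a and the transcription factor Elf5 are needed for alveolar luminal cells to form and to make milk, and estrogen acts on prolactin secretion at the pituitary as well as on mammary epithelium itself.

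With E2, Elf5 and Stat5a stood higher on every array than on any vehicle array, Stat5b and Jak2 rose by smaller amounts, and the receptor gene and the 4 inhibitor genes did not pass the test. Averaged over both diets, 4 of the 9 genes were called, all 4 higher, at a Benjamini-Hochberg adjusted p under 0.05 over all genes (limma), where 12.2% of all 14217 genes were called in either direction. The median change of the 9 genes was 0.49 on the log2 scale, against 0.0042 for all genes, and 7 of the 9 had an unadjusted p under 0.05, against 29% of all genes. The samples with and without E2 did not overlap for 2 of the 9, against 6.88% of all genes.

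**Figure D1:**
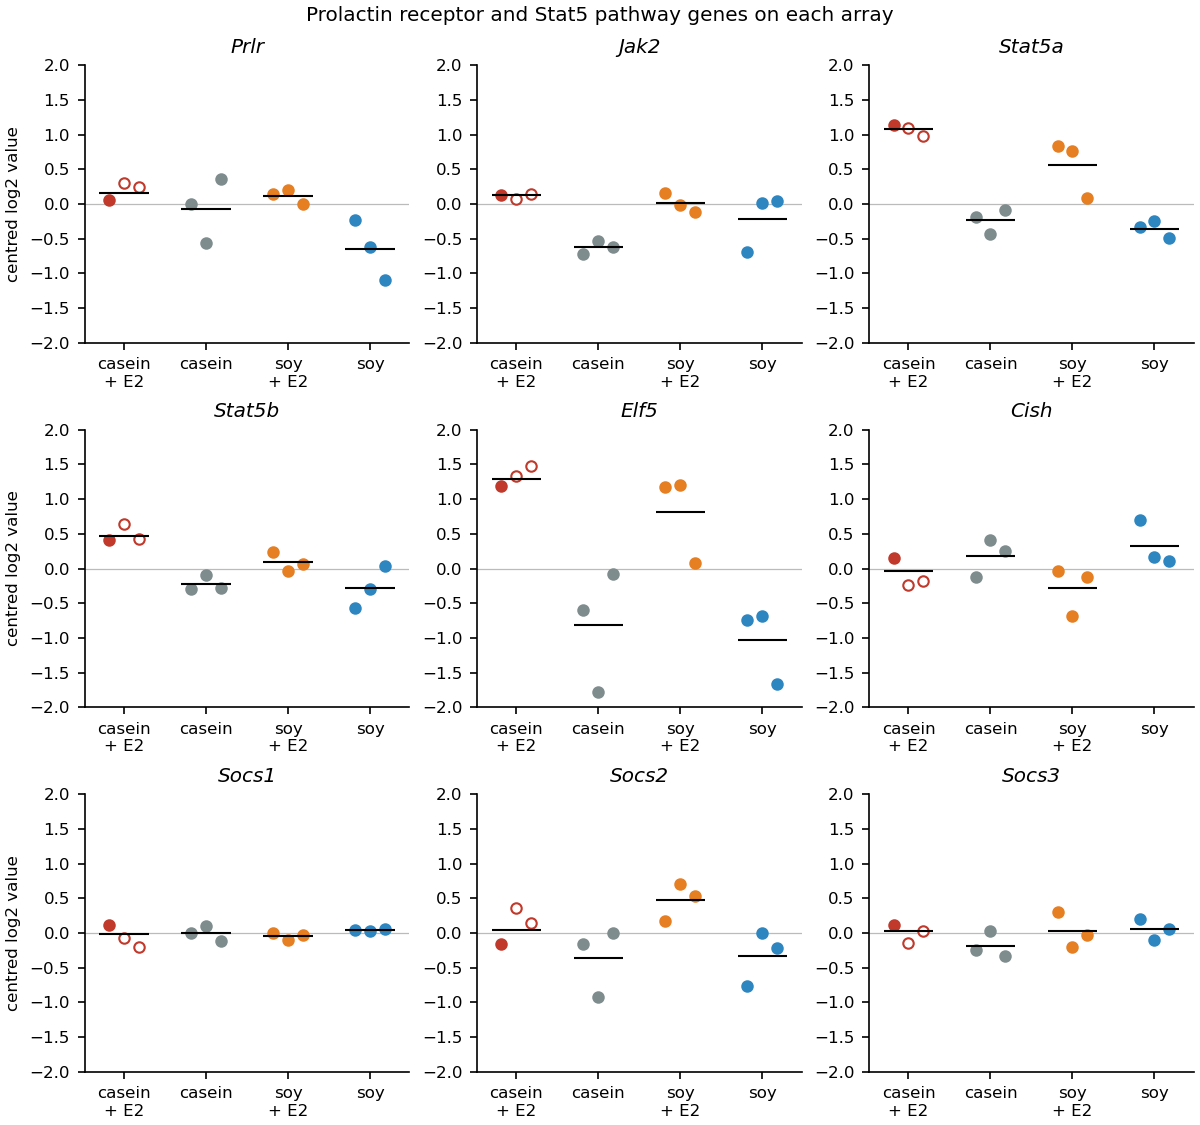
Centred log2 values (y axis, 0 is the median of the 12 arrays) of the 9 genes on each array, by group, with a bar at the mean of the group's samples; open circles are the 2 casein plus E2 arrays that were averaged into 1 sample. Elf5 lies between 0.073 and 1.48 on arrays with E2 and between -1.78 and -0.073 on arrays without it, and soy plus E2 pool 3 is the lowest E2 array for Elf5 and Stat5a.

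Prlr, the receptor, was read by 3 probe sets. Its mean value was 0.054, 0.30 and 0.24 in casein plus E2 pools 1 to 3, against 0.0022, -0.56 and 0.36 in casein pools 1 to 3. In soy-fed rats it was 0.14, 0.20 and 0.0024 with E2, against -0.22, -0.62 and -1.09 with vehicle. The casein groups overlapped, and the soy groups did not, with all 3 soy pools under all 3 soy plus E2 pools. The change was 0.49 ± 0.19 (log2, ± SE) averaged over diets (limma adjusted p = 0.116), 0.23 ± 0.28 in casein-fed and 0.76 ± 0.25 in soy-fed rats (adjusted p = 0.148), and none of these passed.

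The 3 probe sets of Prlr did not move alike. Probe set 1369493_at had its highest value, 1.06, in casein pool 3, the array with liver transcripts, and lay between -0.43 and 0.24 on the 11 other arrays. On that array 1370384_a_at stood at -0.0043 and 1370789_a_at at 0.0068. Liver is a tissue in which Prlr is known to be expressed, and the part of liver RNA in these values was not tested. In the test over every probe set the E2 change of 1369493_at was 0.15 ± 0.21, and without casein pool 3 it was 0.36 and passed (adjusted p = 0.0276). Probe sets 1370384_a_at and 1370789_a_at had E2 changes of 0.72 ± 0.25 (adjusted p = 0.110) and 0.61 ± 0.20 (adjusted p = 0.0956). The last of these passed with 12 separate arrays (adjusted p = 0.0413), with array weights (0.0159) and without soy pool 1 (0.78, adjusted p = 0.0207). The sources used here do not say which receptor forms each probe set reads. Soy pool 3 had the lowest value of all arrays in each of the 3, at -0.43, -1.71 and -1.14.

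**Figure D2:**
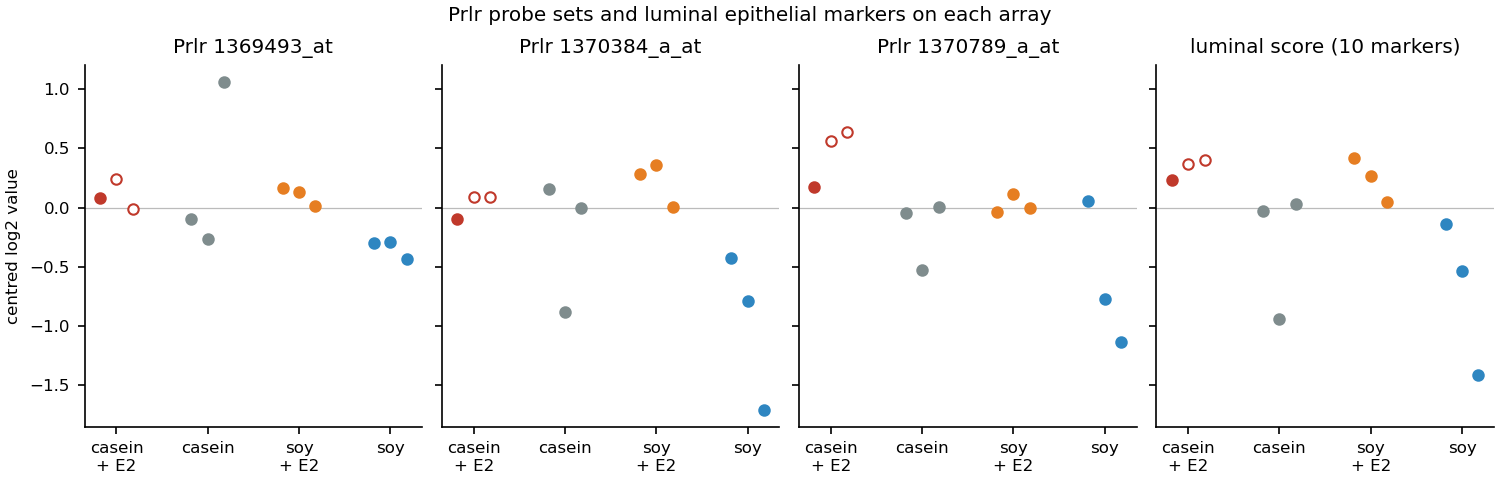
Centred log2 values (y axis) of the 3 Prlr probe sets and the mean of 10 luminal epithelial markers on each array, by group, with open circles for the 2 averaged arrays. The value of 1.06 for 1369493_at belongs to casein pool 3, and the soy arrays run down to -1.71 in 1370384_a_at while the luminal score runs down to -1.41.

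Jak2, the kinase bound to the receptor, had 1 probe set. It stood at 0.14, 0.079 and 0.14 in casein plus E2 pools, against -0.71, -0.54 and -0.62 in casein pools. The soy plus E2 pools were at 0.15, -0.013 and -0.12, against -0.69, 0.013 and 0.042 in soy pools. The groups separated in casein-fed rats and overlapped in soy-fed rats, where soy pool 1 alone was low. Jak2 rose by 0.48 ± 0.13 in the average of both diets (adjusted p = 0.0457), with 0.75 ± 0.20 in casein-fed rats (adjusted p = 0.0808) and 0.22 ± 0.18 in soy-fed rats. The call held in 6 of 12 fits that left out an array, and was lost without casein pool 1, 2 or 3, casein plus E2 pool 1 or soy plus E2 pool 1 or 2 (adjusted p up to 0.139). Jak2 also moved with the spike-in transcripts: the difference between E2 and vehicle was 0.70 among samples with spike-ins above 0 and 0.022 among those below 0. With that split as a term the adjusted p was 0.0578, while after quantile normalization it was 0.0574. Prlr differed across the split in the other direction (0.23 above 0 and 0.99 below 0). Stat5a (1.21 and 1.02) and Elf5 (1.99 and 2.06) differed less. The split is also mixed with diet. Vehicle samples below 0 were soy pools 2 and 3 alone, and those above 0 were the casein pools and soy pool 1. The mean of 9 lymphocyte markers divided the arrays the same way, at -1.57 to -0.88 on those with spike-ins above 0 and 0.66 to 2.19 on those below 0, and its part in the Jak2 values was not tested.

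Stat5a, the member of the Stat5 pair that mouse mammary development depends on most, gave the most separated values. It stood at 1.13, 1.09 and 0.98 in casein plus E2 pools, against -0.19, -0.43 and -0.088 in casein pools. In soy plus E2 pools it stood at 0.83, 0.76 and 0.088, against -0.33, -0.24 and -0.49 in soy pools. Every E2 array was above every vehicle array, and soy plus E2 pool 3 came closest to them. Stat5a rose by 1.12 ± 0.14, a 2.17-fold change (adjusted p = 0.00487), and ranked 40th of 14217 genes by p-value. In casein-fed rats alone it rose by 1.32 ± 0.21 (adjusted p = 0.0248) and was the only 1 of the 9 genes called there, where 2.43% of all genes were called. An unadjusted p under 0.05 was found there for 4 of the 9, against 19.6% of all genes, and 4 of the 9 had groups without overlap, against 39.8%. In soy-fed rats the change was 0.91 ± 0.19 (adjusted p = 0.0766), where 0 of the 9 genes and 0.218% of all genes were called. In soy-fed rats 6 of the 9 had an unadjusted p under 0.05, against 20.6% of all genes, and 6 had groups without overlap, against 24.6%.

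Calls within a diet depended on single arrays, for these genes and for all genes. Without soy plus E2 pool 3 the soy-fed change of Stat5a was 1.15 (adjusted p = 0.00502) and that of Elf5 2.22 (adjusted p = 0.0347), which made 2 of 9 genes called. Over all genes that fit called 760, against 31 in the main fit. Without casein pool 1 the casein-fed change of Stat5a was 1.35 (adjusted p = 0.0705), and without casein pool 2 it was 1.22 (adjusted p = 0.0691). Neither passed, and these fits called 17 and 12 of all genes, against 346 in the main fit. Without casein plus E2 pool 1, which leaves that group a single sample, the Stat5a change was 1.28. The average of both diets passed for Stat5a without any 1 of the 12 arrays, with changes of 1.05 to 1.24.

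Stat5b, the close relative that carries growth hormone signals in liver, moved less. It stood at 0.41, 0.64 and 0.42 in casein plus E2 pools, against -0.29, -0.098 and -0.28 in casein pools. In soy plus E2 pools it stood at 0.23, -0.032 and 0.066, against -0.57, -0.30 and 0.032 in soy pools. The casein groups separated, and soy pool 3 lay above soy plus E2 pool 2. Stat5b rose by 0.53 ± 0.11 in the average (adjusted p = 0.0191), with 0.70 ± 0.16 in casein-fed rats (adjusted p = 0.0589) and 0.37 ± 0.15 in soy-fed rats. The call was lost without casein plus E2 pool 1 (adjusted p = 0.0636) or soy plus E2 pool 1 (adjusted p = 0.0505) and held in the 10 other such fits. Stat5a and Stat5b are similar genes that lie next to each other, and how far their probe sets cross-hybridise is not known here.

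The difference between Stat5a and Stat5b within each sample, a comparison chosen after the values were seen, was 0.72 and 0.51 in casein plus E2 samples, against 0.10, -0.34 and 0.19 in casein samples. It was 0.60, 0.79 and 0.022 in soy plus E2 samples, against 0.23, 0.058 and -0.53 in soy samples. E2 moved it by 0.59 on average (two-sided exact permutation within diets p = 0.025, adjusted p = 0.05 over 4 such differences), which is not under 0.05. The adjusted p was under 0.05 after quantile normalization (0.04) and with 12 separate arrays (0.03), and lay between 0.02 and 0.12 when 1 array was left out. Fewer samples allow fewer permutations, which raises the smallest p they can give.

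**Figure D3:**
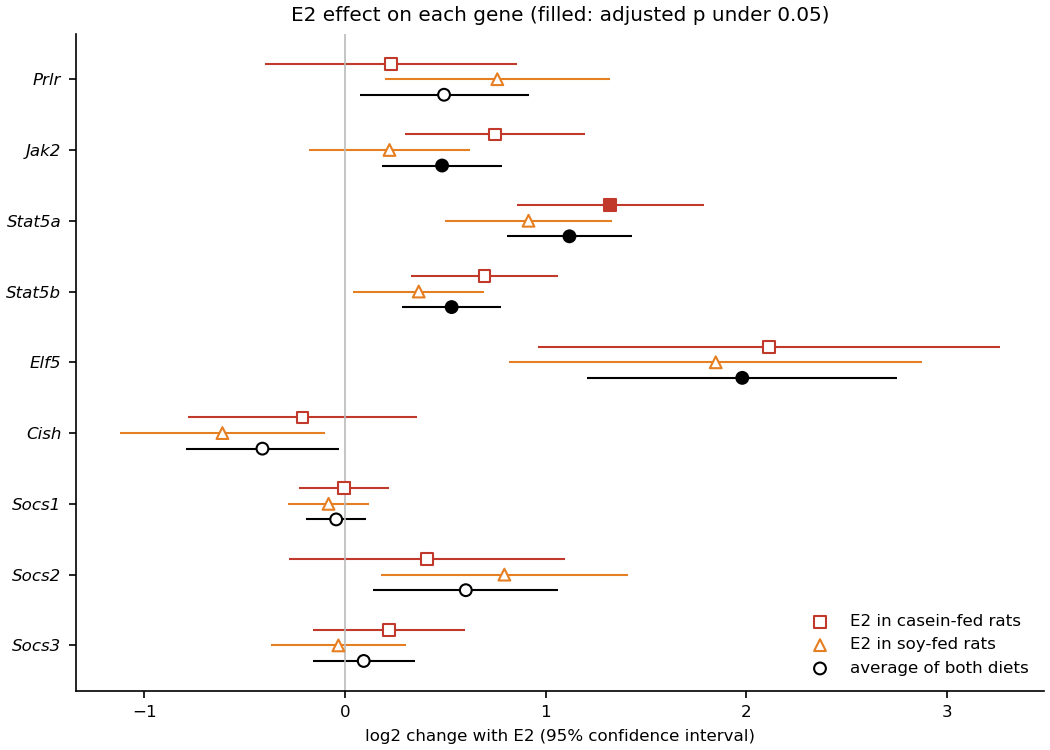
Log2 change with E2 (x axis) of each of the 9 genes in casein-fed rats (squares), in soy-fed rats (triangles) and averaged over both (circles), with 95% confidence intervals of the limma fit; filled symbols have an adjusted p under 0.05. Elf5 (1.98) and Stat5a (1.12) lie farthest to the right in the average, and the interval of Cish runs from -0.80 to -0.029 although its adjusted p is 0.146.

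Elf5, an ETS-family transcription factor of alveolar luminal cells, had the largest change of the 9. It stood at 1.19, 1.33 and 1.48 in casein plus E2 pools, against -0.59, -1.78 and -0.073 in casein pools. In soy plus E2 pools it stood at 1.17, 1.21 and 0.073, against -0.74, -0.69 and -1.66 in soy pools. The groups did not overlap in either diet, but soy plus E2 pool 3 and casein pool 3 were close together on either side of the median. Elf5 rose by 1.98 ± 0.34, a 3.94-fold change (adjusted p = 0.0124), and ranked 30th of 14217 genes by the size of its rise. The call held without any 1 of the 12 arrays, with changes of 1.74 to 2.17 and adjusted p-values of 0.0048 to 0.0492. Within a diet the changes were 2.11 ± 0.51 in casein-fed (adjusted p = 0.065) and 1.85 ± 0.46 in soy-fed rats (adjusted p = 0.0977).

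The inhibitors gave no call, and their signs differed. Cish and Socs2 are Stat5-induced feedback inhibitors, Socs1 blocks Jak kinases directly, and Socs3 is best known for stopping signals of the interleukin-6 family. Socs2 stood at -0.16, 0.36 and 0.14 in casein plus E2 pools, against -0.16, -0.93 and 0.0035 in casein pools. In soy plus E2 pools Socs2 stood at 0.17, 0.70 and 0.54, against -0.76, -0.0035 and -0.21 in soy pools. The casein groups overlapped and the soy groups did not. Its change was 0.60 ± 0.21 (adjusted p = 0.0862).

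Cish had values of 0.15, -0.24 and -0.19 in casein plus E2 pools, against -0.13, 0.42 and 0.26 in casein pools. In soy plus E2 pools it had -0.040, -0.69 and -0.13, against 0.70, 0.16 and 0.11 in soy pools. Both diets' E2 arrays sat mostly below the vehicle arrays, and only the soy groups were free of overlap. The change was -0.41 ± 0.17 in the average (adjusted p = 0.146) and -0.61 ± 0.23 in soy-fed rats (adjusted p = 0.181), and its 2 probe sets had the same sign. Socs3 changed by 0.093 ± 0.11 and Socs1 by -0.044 ± 0.067, with all 12 arrays of Socs1 between -0.20 and 0.11. The confidence interval of Socs1, from -0.20 to 0.11, is narrower than those of the other 8 genes.

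Stat5 dimers bind the palindrome TTCNNNGAA, which is shown for Cish, whose E2 change was negative, and for the beta-casein gene Csn2, a milk gene that rose. The 250 bases upstream of the annotated start of Cish, at chr8:116850719-116850968 on the plus strand, and of the beta-casein gene Csn2, at chr14:20601574-20601823 on the plus strand, are given from RefSeq on GRCr8, and capitals mark each copy of the motif.
Cish: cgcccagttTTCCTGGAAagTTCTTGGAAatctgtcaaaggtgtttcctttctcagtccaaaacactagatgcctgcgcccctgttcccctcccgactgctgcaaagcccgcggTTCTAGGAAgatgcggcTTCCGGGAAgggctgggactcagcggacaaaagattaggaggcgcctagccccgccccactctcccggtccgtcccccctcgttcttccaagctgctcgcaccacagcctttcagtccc
Csn2: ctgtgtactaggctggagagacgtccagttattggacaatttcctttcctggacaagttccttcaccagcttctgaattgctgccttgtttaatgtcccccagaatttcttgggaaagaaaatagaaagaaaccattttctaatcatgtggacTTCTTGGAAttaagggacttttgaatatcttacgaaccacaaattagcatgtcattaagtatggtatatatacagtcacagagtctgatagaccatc
The motif reads the same on both strands, and no other motif was searched. Cish holds 4 copies, beginning 241, 230, 136 and 119 bases before the start, and Csn2 holds 1, beginning 97 bases before it. Of 33469 promoter windows of this length in the RefSeq table, 2566 (7.67%) hold the motif, 140 (0.418%) hold 2 or more and 2 hold 4. Of the 9 genes 7 had an entry, Elf5 and Socs2 being the others. Socs1 holds 1 copy, and Prlr holds 1 in the second of its 2 annotated starts and 0 in the first. Jak2, Stat5a, Stat5b and Socs3 hold 0 in this window. The whey acidic protein gene Wap, the other milk gene searched, also rose and holds 0. A match is a run of letters and not a measured binding site.

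Milk genes known to depend on Stat5 rose together. Of 10 listed, 7 were measured and 7 of 7 rose with E2 in the average, with a median change of 1.69 against 0.0042 for all genes. In the counts of this and the following lists, rose and fell mean called in that average. There 12.2% of all genes were called in either direction. Whey acidic protein Wap rose by 5.56 ± 0.62, beta-casein Csn2 by 3.88 ± 0.89, the mucin Glycam1 by 3.78 ± 0.83 and kappa-casein Csn3 by 1.69 ± 0.21. Alpha-lactalbumin Lalba (1.05), alpha-S1-casein Csn1s1 (1.03) and Xdh, an enzyme needed for milk fat secretion (0.93), rose less. Leaving out an array gave 3 to 7 calls among the 7 (3 without pool 1 of casein plus E2, and 4 without pool 1 or 2 of soy plus E2), and Wap, Csn3 and Xdh passed in all 12 such fits. Wap stood at 2.54 and 2.98 in casein plus E2 samples, against -1.31, -4.42 and -1.22 in casein samples, and at 3.27, 3.09 and 1.22 in soy plus E2 samples, against -3.73, -3.93 and -2.93 in soy samples.

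Other Stat5 targets, outside milk, did not share this direction. Of 10 such genes 1 rose and 2 fell, with a median change of -0.0052. Cyclin D1 gene Ccnd1 rose by 0.62 ± 0.18 (adjusted p = 0.0495), cyclin D2 gene Ccnd2 fell by 0.68 ± 0.13, and the insulin-like growth factor gene Igf1 fell by 1.52 ± 0.28. Igf1 had -1.004 and -1.43 in casein plus E2 samples, against 0.14, 0.64 and 0.50 in casein samples, and -1.91, -1.34 and -0.084 in soy plus E2 samples, against 0.46, 0.16 and 0.23 in soy samples. Ccnd1 lost its call after quantile normalization or median centring (adjusted p = 0.0554 and 0.0533) and kept it in 4 of 12 fits without an array, and Ccnd2 and Igf1 kept theirs in 11, losing it without casein plus E2 pool 1.

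Among 10 other hormones and receptors that signal through Stat5, 0 rose and 1 fell. Growth hormone receptor gene Ghr fell by 1.16 ± 0.29 (adjusted p = 0.0322), a call that held in 4 of 12 fits without an array. Erbb4, the neuregulin receptor that can activate Stat5a, changed by 0.072 ± 0.077, and Csf2rb, the shared beta chain of several cytokine receptors, by -0.32 ± 0.11 (adjusted p = 0.100). Of the 7 other Janus kinases and STATs 0 passed: Stat3 changed by 0.49 ± 0.20 (adjusted p = 0.136) and Stat2 by -0.11 ± 0.054. Stat3 has been tied in mouse to the regression of the gland after weaning. In this list 1 gene had an unadjusted p under 0.05, against 29% of all genes.

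**Figure D4:**
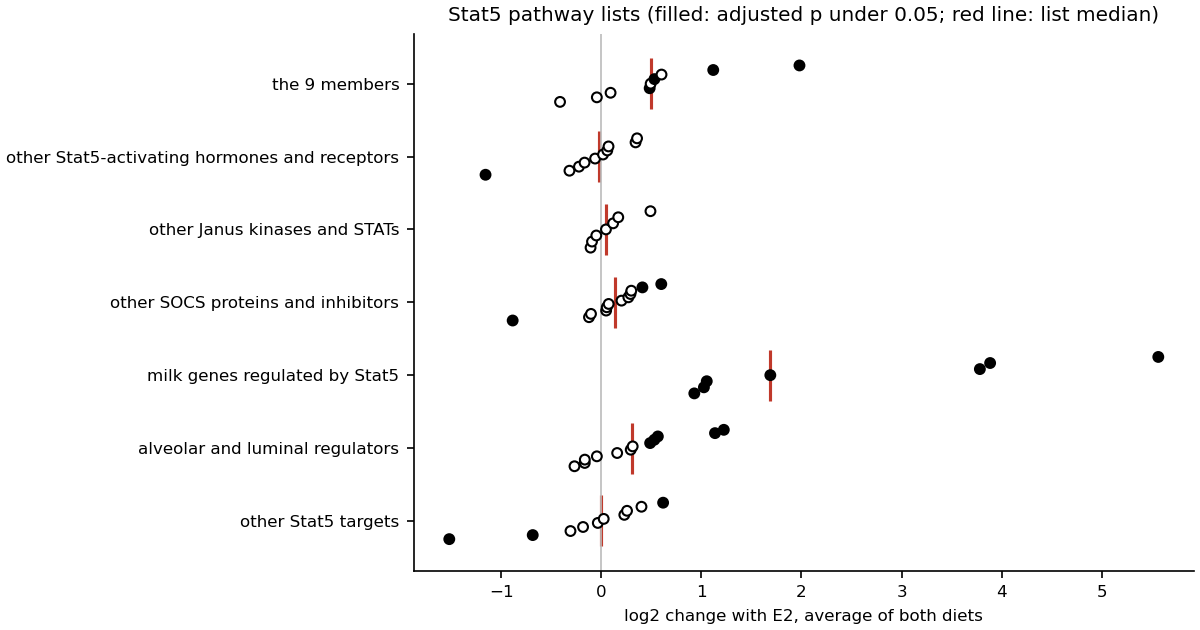
Log2 change with E2 averaged over both diets (x axis) for each measured gene of the 9 and of 6 lists of related genes; filled points have an adjusted p under 0.05 and the red line is each list's median. All 7 milk genes are filled and lie between 0.93 and 5.56, while the kinase and STAT list has no filled point.

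Among 12 other inhibitors of this pathway 2 were called higher and 1 lower, against 12.2% of all genes in either direction. The median change was 0.14, and 9 of the 12 changes were above 0. Socs5 rose by 0.60 ± 0.073 (adjusted p = 0.0049), Socs6 by 0.41 ± 0.11, and Cav1, which encodes caveolin-1, an inhibitor of Jak2 in mouse mammary cells and an abundant protein of fat cells, fell by 0.89 ± 0.24. Socs5 kept its call in all 12 fits without an array, and Socs6 and Cav1 kept theirs in 4, with Socs6 also losing its call under median centring (adjusted p = 0.0529). Socs5 was at 0.58 and 0.60 in casein plus E2 samples, against -0.26, -0.38 and -0.34 in casein samples, and at 0.27, 0.17 and 0.0084 in soy plus E2 samples, against -0.27, -0.0084 and -0.12 in soy samples.

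Of 12 regulators of alveolar and luminal cells 5 rose and 0 fell, with a median of 0.30. Gata3, a luminal transcription factor, rose by 1.22 ± 0.23, and Ehf, an epithelial relative of Elf5, by 1.14 ± 0.30. Cebpb rose by 0.57 ± 0.16, Id2 by 0.53 ± 0.13 and Nfib, which acts with Stat5 at milk genes in mouse, by 0.49 ± 0.093. Median centring ended the call of Cebpb (adjusted p = 0.0502) and quantile normalization that of Ehf (adjusted p = 0.0678). Leaving out an array gave 0 to 5 calls here, with 0 in the fit without casein plus E2 pool 1, which leaves that group a single sample, and 2 without casein pool 1 or 2, soy pool 2 or 3 or pool 1 or 2 of soy plus E2.

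Transcripts that mark epithelial cells and fat cells also differed with E2. In bulk tissue fewer cells of a type and less RNA per cell cannot be told apart, and this holds for every gene above. The mean of 10 luminal epithelial markers, here the luminal score, was 0.24 to 0.40 on casein plus E2 arrays, against -0.94 to 0.031 on casein arrays, and 0.047 to 0.42 on soy plus E2 arrays, against -1.41 to -0.14 on soy arrays. Of the 10 markers 4 rose (Cd24 by 1.88, Krt19, Cldn3 and Epcam) and Krt7 fell, and Cldn7 changed by 1.23 without passing. Leaving out an array gave 1 to 5 luminal markers higher and 0 to 1 lower, with 1 higher without casein pool 2, casein plus E2 pool 1 or soy plus E2 pool 1 or 2, and 2 without casein pool 1 or soy pool 2. Of 6 basal markers Krt14 (1.08), Krt5 (0.99) and Krt17 rose. The change was above 0 for 5 of the 6, and Oxtr, which did not pass, went the other way. Basal scores were 0.17 to 0.29 and -0.14 to 0.36 on casein plus E2 and soy plus E2 arrays, against -0.47 to 0.033 and -0.98 to -0.18 on casein and soy arrays. Of 9 adipocyte markers 8 fell, with scores of -1.04 to -0.44 and -1.42 to 0.040 on casein plus E2 and soy plus E2 arrays, against 0.089 to 0.89 and 0.035 to 0.60 on casein and soy arrays. Leaving out an array gave 0 to 4 basal calls, with 0 without casein plus E2 pool 1. It gave 0 to 9 adipocyte calls, with 0 without casein plus E2 pool 1, 4 without soy pool 2 and 2 without casein pool 1 or 2, soy pool 1 or 3 or soy plus E2 pool 1 or 2. Of 11 skeletal muscle markers 0 had a change above 0 in the average, with a median of -1.73, and 0 were called. The part of basal cells, adipocytes and skeletal muscle in the results on the 9 genes was not tested.

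Against the luminal score, Elf5 was tested, with Stat5a and Prlr beside it. Elf5 minus the score, a measure chosen after the values were seen, was 0.95 and 1.02 in casein plus E2 samples, against -0.57, -0.84 and -0.10 in casein samples. It was 0.75, 0.94 and 0.026 in soy plus E2 samples, against -0.60, -0.15 and -0.25 in soy samples. No E2 sample lay below a vehicle sample, and the mean difference was 1.20 (two-sided exact permutation within diets p = 0.005, the smallest these 200 splits can give, adjusted p = 0.02 over 4 such differences). Without 1 array the Elf5 difference was 1.11 to 1.34. It did not pass without casein pool 1, 2 or 3 (adjusted p = 0.0667) or soy pool 1 (0.08). Fewer samples leave fewer splits, which raises the smallest p possible. Without a casein pool that smallest p was reached, so the p-value cannot show whether the difference was weaker there. Without casein plus E2 pool 1 that group is a single sample, and no p-value is given. For Stat5a the mean difference was 0.34 (adjusted p = 0.225), with the soy samples at -0.19, 0.30 and 0.92. For Prlr it was -0.29 (adjusted p = 0.08) and did not pass, though it did after quantile normalization (0.0467) and with 12 separate arrays (0.04).

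With the luminal score as a term in the fit, the E2 changes in the average were 1.05 ± 0.28 for Elf5, 0.88 ± 0.18 for Stat5a, 0.77 ± 0.12 for Stat5b, 0.71 ± 0.17 for Jak2 and -0.058 ± 0.11 for Prlr. In that average 0 of the 9 genes passed (limma adjusted p 0.0762 for Stat5b and higher for the rest), and 4 of all 14217 genes did. Of the genes in the 6 lists of related genes 0 passed either, with Wap at 4.63 and Csn2 at 2.61. In casein-fed rats Stat5b passed with the score as a term (0.89, adjusted p = 0.0475), and Stat5a did not (1.14, adjusted p = 0.0637). The score was higher with E2, with no overlap between E2 and vehicle arrays of a diet.

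**Figure D5:**
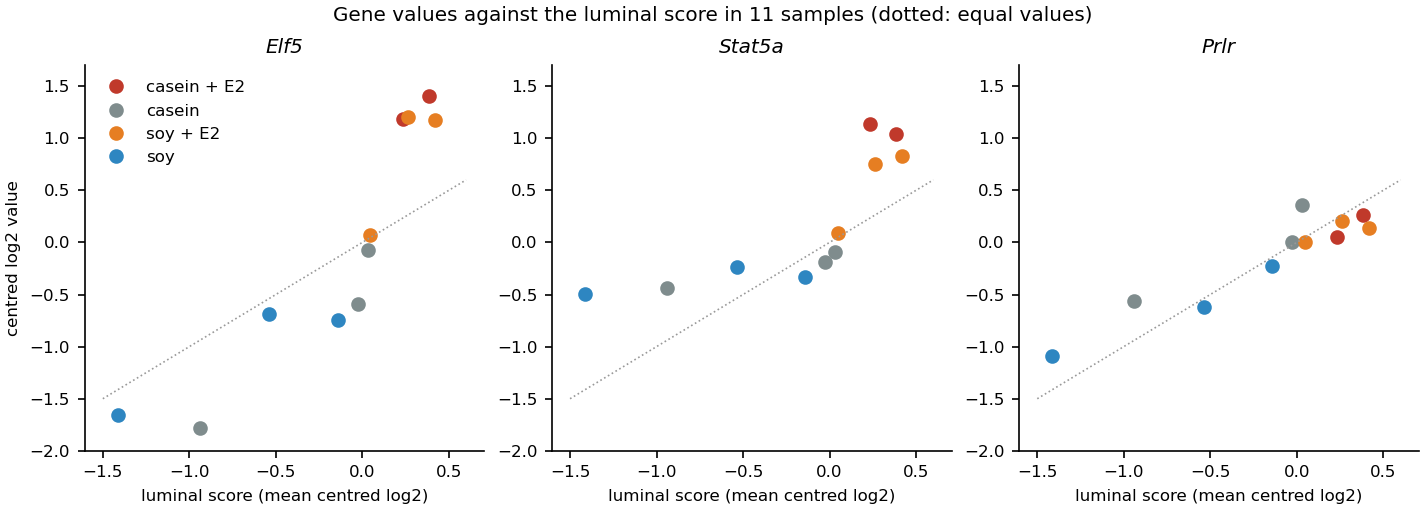
Centred log2 values of Elf5, Stat5a and Prlr (y axes) against the luminal score, the mean of 10 luminal markers (x axes), in 11 samples coloured by group; the dotted line marks equal values. Elf5 lies above the line in every E2 sample and below it in every vehicle sample, while Prlr lies at most 0.38 from the line.

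Soy itself gave no call among the 9 genes. Without E2, soy against casein called 0 of 9 and 0% of all genes (limma), with 2 of the 9 at an unadjusted p under 0.05, against 10.4% of all genes, and 0 of the 9 free of overlap, against 13.3%. These were Prlr at -0.58 ± 0.25 and Jak2 at 0.41 ± 0.18 (adjusted p = 0.476 and 0.477). Without soy pool 1 Jak2 was called (0.65, adjusted p = 0.0418), in a fit that called 327 of all genes. With array weights both genes were called, among 1588 of all genes. The fit without soy pool 1 keeps soy pools 2 and 3, with lymphocyte marker means of 1.74 and 2.19 and spike-ins below 0. Casein pools had means of -1.41 to -0.97 and spike-ins above 0, so in that fit diet cannot be told apart from these. In the main fit Elf5 changed by -0.22 ± 0.46, Stat5a by -0.12 ± 0.19, Stat5b by -0.055 ± 0.15, Cish by 0.14 ± 0.23, Socs1 by 0.045 ± 0.090, Socs2 by 0.037 ± 0.27 and Socs3 by 0.24 ± 0.15.

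Under E2, soy plus E2 against casein plus E2 called 0 of 9 and 0.00703% of all genes, with 2 of the 9 at an unadjusted p under 0.05, against 5.1% of all genes. Stat5a was at -0.53 ± 0.21 (adjusted p = 0.950) and Stat5b at -0.38 ± 0.16 (adjusted p = 0.975), and for both every soy plus E2 pool lay under every casein plus E2 pool. Such a lack of overlap, in 2 of the 9, was found in 23.3% of all genes. Elf5 changed by -0.48 ± 0.51, with a 95% confidence interval from -1.63 to 0.67. The change of the other 6 lay between -0.25 for Cish and 0.42 for Socs2.

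Whether E2 acted differently in the 2 diets was tested as an interaction, the E2 change in soy-fed minus that in casein-fed rats. It called 0 of 9 and 0% of all genes, and 0 of the 9 had an unadjusted p under 0.05, against 6.53% of all genes. The differences ran from -0.52 ± 0.27 for Jak2 (adjusted p = 0.785) to 0.53 ± 0.38 for Prlr (adjusted p = 0.824). For Stat5a it was -0.41 with a 95% confidence interval from -1.03 to 0.22, and for Elf5 -0.26 with an interval from -1.81 to 1.28.

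The members also differed in how they ran across the 11 samples, which share the groups and their cell content, and the correlations are given as a description. Elf5 and Stat5a ran most alike of any pair, with a Pearson r of 0.95. Prlr had an r of 0.80 with Elf5 and -0.040 with Jak2, while Jak2 and Stat5b had 0.77. Socs2 and Cish ran oppositely, at -0.86. Of all genes except those with symbols starting in LOC or RGD, those most like Elf5 were Ttc39a, Map7, Grhl1, Rab11fip1 and Tfap2c (r of 0.99 each). Of these, Grhl1 and Tfap2c encode epithelial transcription factors. Those most like Stat5a were Bex3 (0.99), Slc34a2, which encodes a phosphate transporter, Wfdc3, Slc50a1 and Jpt2 (0.98 each). Prlr was most like Ttyh2 (0.97), Baiap2l1 (0.96), the luminal keratin gene Krt18 (0.95), Pik3c2a (0.95) and Ptpn3 (0.94). Jak2 was most like Plac8 and Vrk1 (0.97 each), Rhebl1 (0.96), Nsmaf and Rps9 (0.95 each), and Stat5b most like Ythdf2 (0.96), 4930522L14Rikl and Htatip2 (0.93 each), Gemin6 and Zfand5 (0.92 each).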

How the data were processed

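RNA of mammary gland pools, made from 8 µg of total RNA per the labels' protocols, was measured on 12 Affymetrix arrays. Per the submitters' processing notes the authors used GCOS, Affymetrix's own software, and how probes were summarised and normalized, and in which log base, is not stated in the sources used here. From their range (widest range of a probe set 9.85) the deposited values were taken as log2, on which every fold here depends. The authors' deposited table is centred per probe set (largest median 5e-07), so no filter on level was possible.

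Groups came from the sample titles. Of the probe sets 20826 carried 1 gene in the platform annotation, 436 several and 9780 none, besides 57 controls, and 20758 of those with 1 gene matched GRCr8 by gene identifier. A gene's value is the mean of its 1-gene probe sets, which gave 14217 genes. The 11 samples were fitted with a mean for each of 4 groups, leaving 7 residual degrees of freedom (limma 3.58.1, lmFit and eBayes without a trend, R 4.3.3). For each of 6 two-sided contrasts a gene was called where the Benjamini-Hochberg adjusted p over all genes was under 0.05. The code was tested on simulated data. Alternatives were quantile normalization, median centring, the probe set of largest SD, 12 separate arrays, pool number as a block, array weights, the spike-in split (whether 18 spike-in probe sets averaged above 0) as a term, only the contrast's groups, and leaving out each array. The luminal score as a term, the tests of single probe sets and the differences within a sample were chosen after seeing the data.

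The 9 genes and all lists were chosen with earlier results of these data known. Named genes are the 9, up to 5 called genes per pathway list, fixed choices (Ghr, Erbb4, Csn2, Wap, Gata3), up to 2 of smallest p in a list with under 2 calls, the 5 genes most correlated with Prlr, Elf5 and each called member, and the 2 most variable genes of each marker list, of which Cd24, Cldn7, Krt5 and Krt14 are printed. Krt17, Krt19, Krt7, Cldn3, Epcam and Oxtr were named after their values were seen. Csn1s1 and Xdh, called milk genes beyond the 5 of largest change, were also named. Symbols starting in LOC or RGD were left out when the most correlated genes were picked. Listed genes without a 1-gene probe set were not analysed here. Promoter sequences were matched by symbol for 7 of the 9 genes.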

Additional observations from a re-analysis of the deposited data

How the results depend on the processing

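Centred values carry no signal over background, so dim probe sets could not be told from bright ones, and 2 or 3 samples a group limit what can be called. Where a count moved, the cause was not tested. E2 in casein-fed rats called 346 genes, against 628 after quantile normalization, 1369 with 12 separate arrays, 821 with the replicate block, 1408 with array weights, 200 with only the groups of the contrast, which leaves fewer samples, and 81 with the luminal score. Of the 9 genes it called 1, against 3, 4, 4, 4 and 2 under the first 5 of these. E2 in soy-fed rats called 31 genes, against 234 after quantile normalization, 226 with 12 separate arrays, 2034 with array weights, 73 with the spike-in split, 9 with only the groups of the contrast and 0 with the luminal score, and it called 0 of the 9, against 2 after quantile normalization, 1 with 12 separate arrays and 4 with array weights. The average over diets called 1741 genes, against 2641 with 12 separate arrays, 3318 with array weights and 4 with the luminal score, where 0 of the 9 were called. The interaction called 0 genes, against 4 with 12 separate arrays, 1 with the replicate block, 5 with array weights and 1 with the spike-in split. Soy without E2 called 0 genes and 0 of the 9, against 1588 and 2 with array weights. Soy under E2 called 1 gene, against 6 after quantile normalization, 2 with the probe set of largest SD, 13 with 12 separate arrays, 3 with the replicate block, 7 with array weights and 0 with the luminal score.

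Leaving out each array in turn gave 5 to 590 genes and 0 to 3 of the 9 for E2 in casein-fed rats (0 without casein pool 1, casein pool 2 or casein plus E2 pool 1, and 3 without soy pool 1). It gave 0 to 760 genes and 0 to 2 of the 9 in soy-fed rats (2 without soy plus E2 pool 3), 313 to 2334 genes and 2 to 4 of the 9 in the average (2 without casein plus E2 pool 1 or soy plus E2 pool 1), 0 to 327 genes and 0 to 1 of the 9 for soy without E2, 0 to 3 genes for soy under E2 and 0 genes for the interaction.

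Pool numbers did not pair the arrays: deviations of same-numbered arrays correlated at -0.42 to 0.46 over 18 pairs, against -0.41 to 0.43 over 36 pairs of different number. The replicate block was therefore kept as an alternative.

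Signs held in 1070 of 1116 refits of the 9 genes. Those that turned, all in changes that had not passed, are given here. With the luminal score, E2 in casein-fed rats gave Prlr -0.21 and Socs1 0.046, E2 in soy-fed rats Socs3 0.031, the average Prlr -0.058, Socs1 0.022 and, outside the 9, Stat3 -0.021, and soy without E2 Elf5 0.25. With array weights, Socs1 was 0.0053 (E2, casein-fed), Socs3 0.11 (E2, soy-fed) and 0.017 (soy under E2), and Stat5b 0.0052 (soy without E2). With the spike-in split, Socs1 was 0.011 (E2, casein-fed) and Socs2 -0.11 (soy without E2), where quantile normalization gave Socs2 -0.030. With the probe set of largest SD, Socs1 was 0.072 (interaction) and -0.084 (soy without E2) and Prlr 0.22 (soy under E2). With 12 separate arrays, with or without the replicate block, soy under E2 gave Socs1 0.010 and Socs3 0.020.

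Leaving out each array gave ranges through 0 for E2 in casein-fed rats in Prlr (-0.018 to 0.44) and Socs1 (-0.13 to 0.045), for E2 in soy-fed rats in Jak2 (-0.019 to 0.35) and Socs3 (-0.17 to 0.082), for the interaction in Socs1 (-0.13 to 0.047) and Elf5 (-0.64 to 0.22), for soy without E2 in Stat5b (-0.21 to 0.091), Socs1 (-0.0076 to 0.097), Socs2 (-0.24 to 0.25), Cish (-0.045 to 0.26) and Elf5 (-0.70 to 0.16), and for soy under E2 in Prlr (-0.15 to 0.0080), Socs1 (-0.062 to 0.092) and Socs3 (-0.15 to 0.10). In the average over diets Stat5a and Elf5 were each called in 19 of 20 refits, Stat5b in 17 and Jak2 in 11.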
